A study of Homo sapiens with 6 samples.

Results

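Glucose is taken up by facilitative transporters and split by the glycolytic enzymes to pyruvate, which is reduced to lactate or passed to the mitochondrion. Many of these genes, with others for acid balance, mitophagy and collagen hydroxylation, respond to the hypoxia-inducible factors. In normal oxygen, prolyl hydroxylases of the EGLN family mark the alpha subunits HIF1A and EPAS1 for VHL-dependent destruction, and in low oxygen these subunits pair with ARNT and bind DNA at a short core of ACGTG or GCGTG. EPAS1 is known as a gene of the developing sympathetic lineage, from which neuroblastoma (NB) arises.

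A set of 44 genes of glycolysis and the hypoxia response was chosen by name for their roles, with earlier results of these data known. The set was compared between TAE684-resistant SY5Y-TR1 cells and their parental SH-SY5Y cells. Of the 44 genes, 41 were among the 19775 genes measured, each through the brightest probe set that carried its symbol alone. SLC16A1, SLC16A3 and CA9 were not analysed here. SH-SY5Y is a human NB line with the activating ALK mutation F1174L, which both lines carry. SY5Y-TR1 is 1 subclone of SH-SY5Y cells that had acquired resistance to the ALK inhibitor TAE684 in culture, and its cells were kept in 1 μM of the drug, against none for SH-SY5Y. The resistant state, the clone and the presence of the drug therefore cannot be told apart, and oxygen and cell density in the cultures are not given in the sources used here. Each line was measured on 3 arrays labelled as biological replicates. Their separate origin is not described, so p-values measure the spread between these samples, which may be technical.

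Values are log2 signals, 1 unit being a 2-fold difference, and levels of different genes cannot be ranked against each other because probes differ in response. A gene was called, and is said to have risen or fallen, at a limma adjusted p (Benjamini-Hochberg over all 19775 genes) under 0.05 with a fold of at least 2. Background was set at 6.33, the 90th percentile of 40 genes of unrelated tissues ranked by their mean over all 6 arrays, and a line with every array at or under it was taken as at background. Arrays correlated at 0.997 to 0.998 within a line and at 0.959 to 0.960 between lines. In all, 2245 genes were called, and every gene with a 2-fold difference passed the p limit, so the fold decided the calls. Of 8 measured neuroblast markers, 5 were above background in SY5Y-TR1 cells and 7 in SH-SY5Y cells, while none of 19 measured Schwann cell, blood and endothelial markers exceeded background in either line.

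Among the 41 genes, 10 rose in SY5Y-TR1 cells, 1 fell and 30 were not called. Over all genes 11.4% were called, 5.36% higher and 5.99% lower. None of the 41 genes was at background in both lines, while 8055 of the 19775 genes were, so shares over all genes include many without signal. With genes whose means were at background in both lines left out, 975 of 11473 genes were called higher and 1066 lower. The median log2 fold change of the 41 genes was 0.24, against 0.04 over all genes. The calls lay on the hypoxia side, with 8 increases and 1 decrease among 17 hypoxia genes (median 0.94). The 24 genes of transport and glycolysis held 2 increases, both glucose transporters, and no decrease (median 0.14). By adjusted p alone, 27 of the 41 genes differed, where 52.8% of all genes did, with 23 higher (28.5% of all genes) and 4 lower (24.3%). All 3 SY5Y-TR1 arrays lay above all SH-SY5Y arrays for 28 of the genes and below them for 8, against 32.6% and 27.2% of all genes. In RNA of a whole culture, fewer cells that express a gene and less RNA per cell cannot be told apart.

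**Figure D1:**
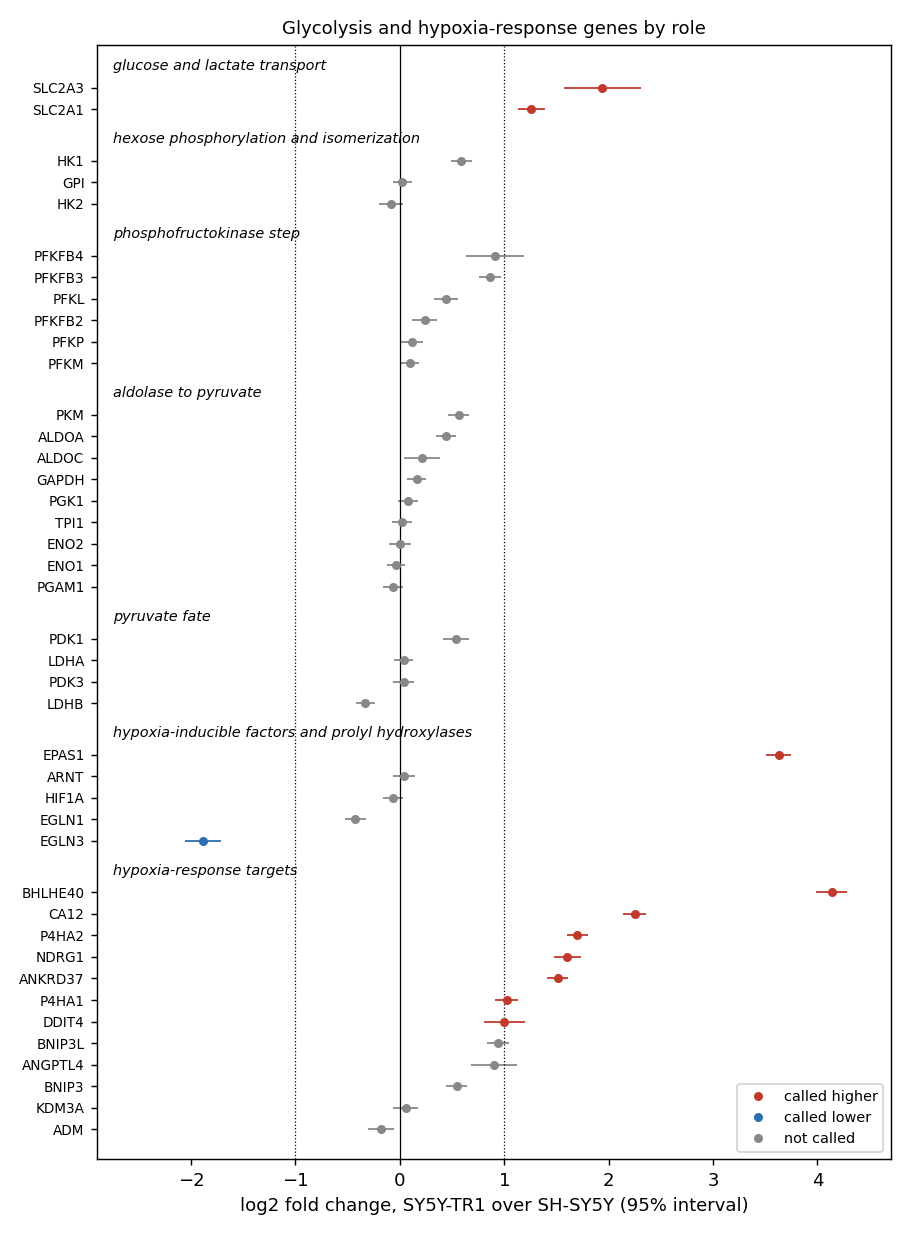
Each of the 41 genes by role, as SY5Y-TR1 minus SH-SY5Y on the log2 scale, with 95% intervals from limma and dotted lines at 2-fold (n = 3 arrays each). The 9 genes between aldolase and pyruvate and the 6 of the phosphofructokinase step hold no call. Of the 12 measured hypoxia-response targets, 7 are called higher, against 5.36% of all genes.

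The DNA upstream of 6 genes is shown because they span the responses in the set. EPAS1, BHLHE40 and ANKRD37 rose, EGLN3 fell, and BNIP3 and PGK1 are classical hypoxia-response genes that were not called. The sequences are RefSeq's, assembly GRCh38.p14, each the 250 bases before the annotated start of transcription, read 5′ to 3′ on the gene's strand. Capitals mark ACGTG or GCGTG, or the same cores on the other strand (CACGT or CACGC). The palindrome CACGTG holds the core on both strands and counts as 2 matches. They lie at chr2:46297157-46297406 on the plus strand (EPAS1), chr3:4979187-4979436 on the plus strand (BHLHE40), chr4:185396591-185396840 on the plus strand (ANKRD37), chr14:33951075-33951324 on the minus strand (EGLN3), chr10:131981924-131982173 on the minus strand (BNIP3) and chrX:78103998-78104247 on the plus strand (PGK1).
EPAS1: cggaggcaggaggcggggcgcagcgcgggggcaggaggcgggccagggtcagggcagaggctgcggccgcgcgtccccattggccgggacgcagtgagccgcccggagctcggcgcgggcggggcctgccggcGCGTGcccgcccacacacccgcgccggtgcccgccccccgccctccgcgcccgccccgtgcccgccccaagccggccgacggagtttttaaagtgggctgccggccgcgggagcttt
BHLHE40: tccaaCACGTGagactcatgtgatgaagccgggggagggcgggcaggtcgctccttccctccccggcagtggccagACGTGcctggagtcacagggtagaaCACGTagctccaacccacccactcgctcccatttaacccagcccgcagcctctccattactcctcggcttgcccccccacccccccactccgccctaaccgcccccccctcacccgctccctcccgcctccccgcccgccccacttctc
ANKRD37: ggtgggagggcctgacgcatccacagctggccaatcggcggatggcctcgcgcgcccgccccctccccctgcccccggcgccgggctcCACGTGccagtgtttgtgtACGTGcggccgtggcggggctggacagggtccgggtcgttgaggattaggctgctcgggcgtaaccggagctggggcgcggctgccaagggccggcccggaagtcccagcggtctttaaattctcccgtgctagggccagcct
EGLN3: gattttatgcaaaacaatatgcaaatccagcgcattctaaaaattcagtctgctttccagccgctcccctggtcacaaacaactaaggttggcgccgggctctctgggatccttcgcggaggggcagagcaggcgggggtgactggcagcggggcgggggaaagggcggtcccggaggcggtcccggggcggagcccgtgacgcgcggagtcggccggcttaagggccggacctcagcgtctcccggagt
BNIP3: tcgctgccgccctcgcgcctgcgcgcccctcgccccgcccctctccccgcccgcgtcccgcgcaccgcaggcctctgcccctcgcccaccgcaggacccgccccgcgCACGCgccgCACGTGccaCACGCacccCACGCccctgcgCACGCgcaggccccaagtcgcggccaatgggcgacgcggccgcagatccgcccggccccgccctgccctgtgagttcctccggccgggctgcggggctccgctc
PGK1: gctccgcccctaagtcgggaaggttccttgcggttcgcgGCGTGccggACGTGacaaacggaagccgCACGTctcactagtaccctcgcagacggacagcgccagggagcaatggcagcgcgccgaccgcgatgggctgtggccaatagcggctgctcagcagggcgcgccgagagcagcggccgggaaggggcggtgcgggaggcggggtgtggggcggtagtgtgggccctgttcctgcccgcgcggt
BNIP3, with 6 matches, had a 1.46-fold higher signal, and PGK1, with 4 once 50 bases after the start were included, had a 1.06-fold higher one. EPAS1, with 1 match, rose 12.4-fold, and EGLN3, with none, fell. P4HA2, whose window is not shown, also had no match and rose 3.25-fold. BHLHE40, with 4 matches, rose at least 13.2-fold, and ANKRD37, with 3, rose 2.85-fold. Whether the matches bear on the changes was not tested. The cores occurred in 42 of the 61 windows of 300 bases that the table held for these genes (68.9%), and in 17012 of all 35116 such windows (48.4%), which include windows of genes that make no protein. ACGTG was found in 41.0% of the genes' windows and 21.4% of all, GCGTG in 42.6% and 36.5%, and CACGTG in 14.8% and 7.3%. The genes were chosen by name for roles that include the hypoxia response, so these shares are not independent of that choice. Of the 37 genes with a window, 33 had a match in at least 1 window. Among them were 7 of 9 called genes and 26 of 28 uncalled ones. A gene with several windows has more chances of a match, HK1 and PFKM having 7 windows each, and the share of all genes with a match is not given here. The highest number of matches in any window was 6, in HK2, LDHA and BNIP3, none of which was called. A match is a run of letters only, and these sequences are the reference, not those of the cell lines. Sequence outside the windows was not searched.

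The transcripts of the hypoxia-inducible factors moved unequally, and the arrays do not measure the proteins. EPAS1, the alpha subunit of the second hypoxia-inducible factor, had log2 signals of 12.94, 12.96 and 12.98 on the SY5Y-TR1 arrays, against 9.34, 9.25 and 9.40 on the SH-SY5Y arrays. The lines were far apart relative to their spread, and EPAS1 rose 12.4-fold (log2 fold change 3.63, SE 0.05, limma adjusted p = 1.71e-08). HIF1A, the alpha subunit of the first factor, had signals of 13.01, 13.06 and 13.03 in SY5Y-TR1 cells and 13.10, 13.10 and 13.10 in SH-SY5Y cells. It was bright on every array and was not called, with a log2 fold change of -0.07 (95% interval -0.16 to 0.03, limma adjusted p = 0.197). ARNT, the shared beta subunit, had signals of 8.44, 8.48 and 8.44 in SY5Y-TR1 cells, against 8.37, 8.47 and 8.40 in SH-SY5Y cells. The lines overlapped, with a log2 fold change of 0.04 (95% interval -0.07 to 0.14). Another ARNT probe set above background was 1.17-fold higher without overlap (limma adjusted p = 0.0186 over all probe sets), under the fold limit. A further one above background overlapped, with a log2 fold change of 0.04. Taken within arrays, the EPAS1 minus HIF1A difference was 3.70 log2 units higher in SY5Y-TR1 cells (95% interval 3.57 to 3.83), which shows that both genes did not change alike but does not rank their levels. Both other EPAS1 probe sets were at background in both lines, so the value rests on 1 probe set, and averaging them in gave a difference of 1.66.

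Of the prolyl hydroxylases, EGLN3 fell and EGLN1 was not called. EGLN3, itself a strongly hypoxia-inducible gene in many cells, had signals of 7.0, 6.83 and 6.78 in SY5Y-TR1 cells and 8.76, 8.67 and 8.83 in SH-SY5Y cells. It was the only gene of the set to fall, by 1.88 on the log2 scale (3.69-fold, SE 0.07, limma adjusted p = 9.16e-07), and its other probe set, at background on all SY5Y-TR1 arrays, fell at least 3.17-fold. EGLN1, the main oxygen-sensing hydroxylase in most cells, had signals of 11.02, 10.98 and 11.03 in SY5Y-TR1 cells, against 11.41, 11.43 and 11.47 in SH-SY5Y cells. The arrays of the lines did not overlap, but the 1.34-fold lower signal was under the fold limit (log2 fold change -0.43, limma adjusted p = 0.00011). The EGLN3 minus EGLN1 difference was lower by 1.46 log2 units in SY5Y-TR1 cells (-1.46, 95% interval -1.67 to -1.24).

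**Figure D2:**
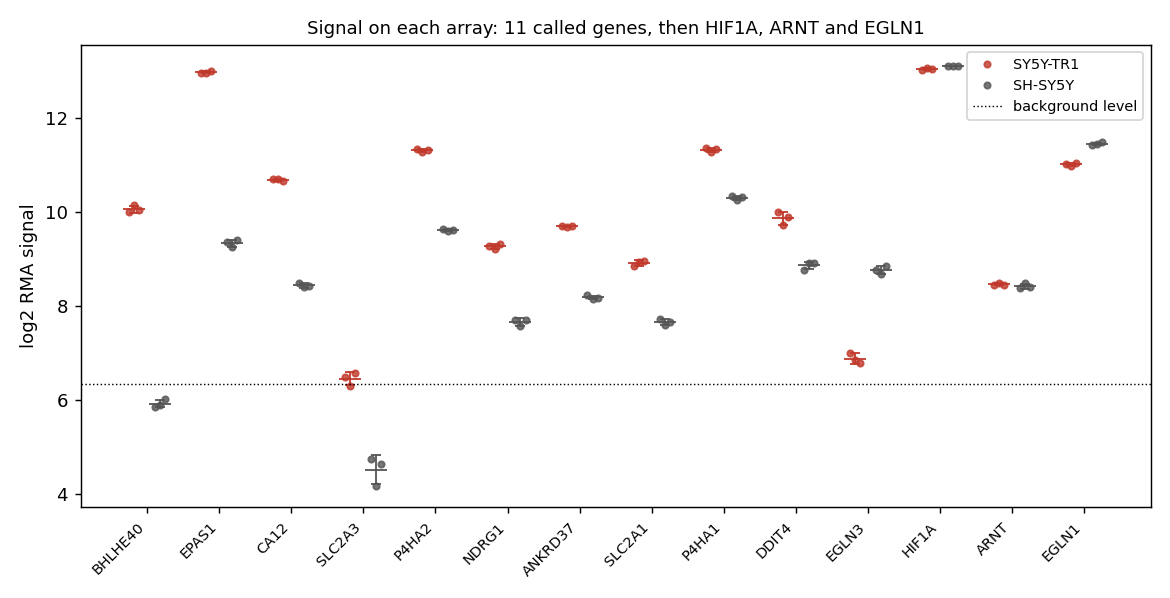
Log2 RMA signal on each array of the 11 called genes and of HIF1A, ARNT and EGLN1, with SY5Y-TR1 left of SH-SY5Y. Points are arrays, bars are the mean ± SD (n = 3 each) and the dotted line is the background level of 6.33, which BHLHE40 and SLC2A3 do not exceed on any SH-SY5Y array.

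Of 12 measured hypoxia-response targets, 7 rose and none fell, beside 5.36% higher and 5.99% lower over all genes. Their median log2 fold change was 1.01. BHLHE40, a helix-loop-helix repressor tied to the circadian clock, had signals of 9.99, 10.14 and 10.03 in SY5Y-TR1 cells and 5.85, 5.90 and 6.01 in SH-SY5Y cells. All SH-SY5Y arrays were at background, so the increase is given as at least 13.2-fold (limma adjusted p = 2.35e-08). Its other probe set was at background in both lines. CA12, a membrane carbonic anhydrase that hydrates CO2 outside the cell, had signals of 10.68, 10.70 and 10.66 in SY5Y-TR1 cells, against 8.49, 8.39 and 8.42 in SH-SY5Y cells. It rose 4.75-fold (log2 fold change 2.25, SE 0.04, limma adjusted p = 5.6e-08), and 5 of its 7 probe sets were called while the other 2 were at background in both lines. NDRG1, a stress-responsive gene linked to differentiation and to suppression of metastasis, had signals of 9.27, 9.21 and 9.31 in SY5Y-TR1 cells and 7.70, 7.56 and 7.70 in SH-SY5Y cells. It rose 3.04-fold through its single probe set (log2 fold change 1.61, SE 0.06, limma adjusted p = 5.81e-07). ANKRD37, a small ankyrin-repeat protein, had signals of 9.69, 9.67 and 9.70 in SY5Y-TR1 cells, against 8.22, 8.15 and 8.16 in SH-SY5Y cells. The lines were clear of each other, and the gene rose 2.85-fold (log2 fold change 1.51, SE 0.04, limma adjusted p = 1.95e-07).

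Both catalytic subunits of collagen prolyl 4-hydroxylase, which prepare collagen chains for their triple helix, were called. P4HA2 had signals of 11.33, 11.26 and 11.32 in SY5Y-TR1 cells and 9.63, 9.58 and 9.60 in SH-SY5Y cells. It rose 3.25-fold (log2 fold change 1.70, SE 0.04, limma adjusted p = 1.28e-07), although another of its probe sets above background gave only 1.78-fold. P4HA1 had signals of 11.35, 11.27 and 11.33 in SY5Y-TR1 cells, against 10.33, 10.25 and 10.30 in SH-SY5Y cells. It rose 2.03-fold (limma adjusted p = 1.73e-06), close to the limit. Without SH-SY5Y replicate 2 its log2 fold change was 0.999 and the call was lost. Within arrays, P4HA2 minus P4HA1 was 0.68 log2 units higher in SY5Y-TR1 cells (95% interval 0.65 to 0.71), but 0.23 with probe sets averaged and 1.53 with only probe sets free of shared-sequence names. Fibroblast markers moved in both directions. COL1A1, FAP and THY1 of the 8 markers rose, DCN, PDGFRA and LUM fell, and their summed linear signal was 27490 to 29950 in SY5Y-TR1 cells and 13548 to 14272 in SH-SY5Y cells. That sum is weighted to the brightest probe sets, those of COL1A1 and COL3A1, and the median log2 fold change of the 8 markers was -0.13, with 4 higher and 4 lower. All 8 markers were above background in SH-SY5Y cells and 6 in SY5Y-TR1 cells, where DCN and COL1A2 were at background. Neuroblast markers moved too, with 5 of 8 falling (CHGB, CHGA, DBH, GATA3 and PHOX2A) and a summed signal of 4071 to 4234 in SY5Y-TR1 cells, against 14165 to 14717 in SH-SY5Y cells. DBH and CHGB were at background in SY5Y-TR1 cells, and TH, the rate-limiting enzyme of catecholamine synthesis, was at background in both lines. Counts for both marker lists are to be read beside 5.36% higher and 5.99% lower over all genes. The part of either marker list in the hypoxia genes' changes was not tested.

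DDIT4, an inhibitor of mTORC1 signaling, had signals of 9.98, 9.71 and 9.88 in SY5Y-TR1 cells and 8.76, 8.91 and 8.90 in SH-SY5Y cells. It rose 2.00-fold (log2 fold change 1.00, SE 0.08, limma adjusted p = 3.94e-05). This call was lost on leaving out SY5Y-TR1 replicate 1 (log2 fold change 0.94), SY5Y-TR1 replicate 3 (0.99) or SH-SY5Y replicate 1 (0.95). Further targets lay just under the limit or below it with all SY5Y-TR1 arrays above all SH-SY5Y arrays. BNIP3L, a mitophagy receptor, was 1.92-fold higher, ANGPTL4, a secreted inhibitor of lipoprotein lipase, was 1.87-fold higher, and BNIP3, the partner of BNIP3L in mitophagy, was 1.46-fold higher, and each had an adjusted p under 0.05. The last of the targets were ADM and KDM3A. ADM, the precursor of the vasodilator peptide adrenomedullin, was 1.13-fold lower (limma adjusted p = 0.0215), and KDM3A, a histone demethylase, had overlapping lines (log2 fold change 0.06).

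The 2 measured glucose transporters both rose. SLC2A1, the basal transporter GLUT1 of most cells, had signals of 8.84, 8.93 and 8.95 in SY5Y-TR1 cells, against 7.72, 7.58 and 7.65 in SH-SY5Y cells. It rose 2.39-fold (log2 fold change 1.26, SE 0.05, limma adjusted p = 1.55e-06), and its other probe set was at background in both lines. SLC2A3, the high-affinity neuronal transporter GLUT3, had signals of 6.49, 6.30 and 6.56 in SY5Y-TR1 cells and 4.73, 4.16 and 4.64 in SH-SY5Y cells. The lines did not overlap (limma adjusted p = 3.57e-05), but every SH-SY5Y array and 1 SY5Y-TR1 array were at background, so the increase is bounded only at 1.09-fold or more. All 3 of its probe sets were called, and the largest log2 fold change among them was 4.05, a bound of at least 1.94-fold. With values raised to the background level the SLC2A3 call was lost (log2 fold change 0.13, limma adjusted p = 0.0727). SLC2A14, a near-identical neighbour that can share its probes, was not analysed here.

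**Figure D3:**
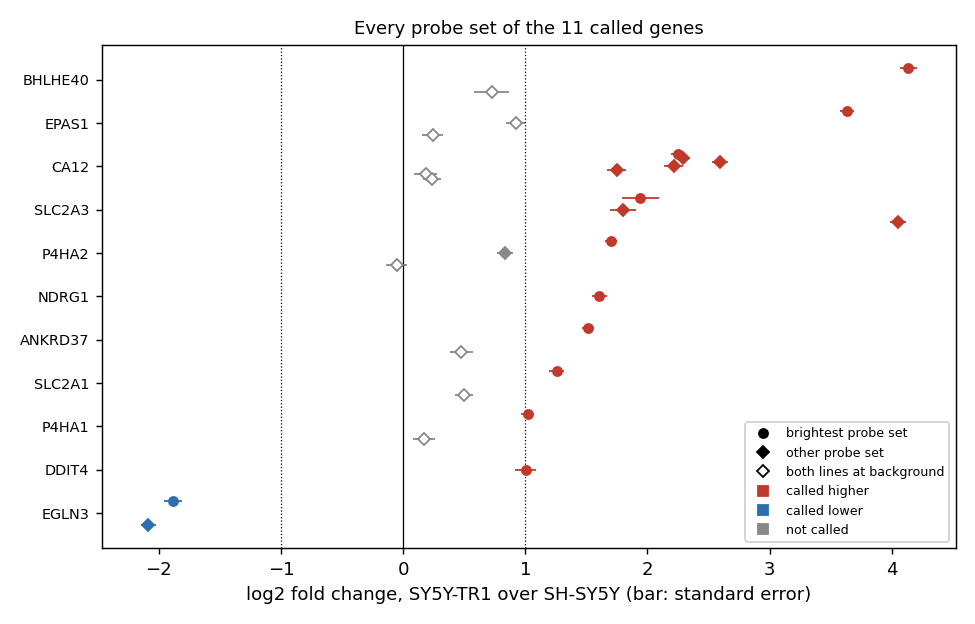
All probe sets of the 11 called genes, as SY5Y-TR1 minus SH-SY5Y on the log2 scale, with standard errors from limma. Circles are the brightest probe set per gene, diamonds the others, open symbols are at background in both lines, and CA12, SLC2A3 and EGLN3 are the genes called by more than 1 probe set.

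None of the 22 measured glycolytic genes from hexokinase to pyruvate fate was called. With the 2 glucose transporters included, 13 of 24 genes passed the adjusted p limit, against 52.8% of all genes. At the entry step, HK1, the general hexokinase, was 1.5-fold higher with all SY5Y-TR1 arrays (11.27 to 11.31) above the SH-SY5Y arrays (10.68 to 10.74). HK2, the inducible hexokinase, had a log2 fold change of -0.09 and GPI, which isomerises glucose 6-phosphate, one of 0.02, and neither passed the adjusted p limit. All 6 genes of the phosphofructokinase step had SY5Y-TR1 arrays above SH-SY5Y arrays, where 32.6% of all genes did. Of the 6, 4 passed the p limit, where 52.8% of all genes did. The largest differences were in the bifunctional enzymes that set fructose 2,6-bisphosphate, the activator of phosphofructokinase. PFKFB4 was 1.88-fold higher, with signals of 7.74, 7.77 and 7.91 in SY5Y-TR1 cells and 6.96, 7.09 and 6.63 in SH-SY5Y cells, and it passed the 2-fold limit without SH-SY5Y replicate 2 (log2 fold change 1.01). PFKFB3 was 1.82-fold higher and PFKFB2 1.18-fold higher. Of the catalytic subunits, PFKL was 1.36-fold higher, while PFKP (0.12) and PFKM (0.09), given as log2 fold changes, missed the p limit.

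From aldolase to pyruvate, the median log2 fold change of 9 genes was 0.08, near that of all genes. PKM, pyruvate kinase of most tissues, was 1.48-fold higher, ALDOA, the main aldolase, 1.36-fold and ALDOC, the neural aldolase, 1.16-fold. GAPDH had the brightest signal of the set, at 14.29, 14.24 and 14.29 in SY5Y-TR1 cells, against 14.11, 14.10 and 14.13 in SH-SY5Y cells. Its arrays did not overlap, but the size was 1.12-fold (log2 fold change 0.16, SE 0.04, limma adjusted p = 0.0117). PGK1 (0.08), TPI1 (0.02), ENO1 (-0.04), PGAM1 (-0.06) and the neuronal enolase ENO2, given as log2 fold changes, missed the p limit. These enzymes carry triose phosphate on to phosphoenolpyruvate.

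The lactate dehydrogenases, the next brightest of the set, differed from each other. LDHA, whose product favours lactate formation, had signals of 13.69, 13.66 and 13.67 in SY5Y-TR1 cells and 13.63, 13.65 and 13.65 in SH-SY5Y cells. The lines were close, with a log2 fold change of 0.04 (95% interval -0.05 to 0.13, limma adjusted p = 0.485). LDHB, the subunit that favours lactate oxidation, had signals of 13.69, 13.65 and 13.68 in SY5Y-TR1 cells, against 14.00, 14.00 and 14.02 in SH-SY5Y cells. It was 1.26-fold lower without overlap (log2 fold change -0.33, SE 0.04, limma adjusted p = 0.000275). PDK1, a hypoxia-inducible kinase that restrains pyruvate dehydrogenase, was 1.45-fold higher, and its relative PDK3 had a log2 fold change of 0.04.

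In 14 measured pairs of related genes, the difference within each array was compared between lines by the exact two-sided permutation test. With 3 arrays against 3 its smallest p is 0.1, or 0.127 after adjustment over the 14 pairs, so no pair could pass. Taken singly, 32.6% of all genes had all SY5Y-TR1 arrays above all SH-SY5Y arrays, and 27.2% had them below. The share of unrelated gene pairs without overlap was not computed. Here the lines did not overlap in 11 pairs. SLC2A1 minus SLC2A3, among them, gives no direction, since SLC2A3 was at background in SH-SY5Y cells. Besides the pairs given above, LDHA minus LDHB was 0.36 log2 units higher in SY5Y-TR1 cells (95% interval 0.34 to 0.39), PFKFB3 minus PFKFB2 0.63 (0.51 to 0.74) and PDK1 minus PDK3 0.50 (0.31 to 0.69). HK2 minus HK1 shifted by -0.67 (-0.81 to -0.54), BNIP3 minus BNIP3L by -0.40 (-0.45 to -0.35), PFKP minus PFKL by -0.32 (-0.51 to -0.13) and ALDOC minus ALDOA by -0.22. The lines overlapped for PFKP minus PFKM (0.03, -0.02 to 0.07), PFKFB4 minus PFKFB3 (0.05, -0.40 to 0.49) and ENO2 minus ENO1 (0.04, -0.05 to 0.13). The intervals cover the spread between arrays, and not the choice of probe sets or how probes differ in response. Where all probe sets of a gene were averaged, EPAS1 minus HIF1A was 1.66, P4HA2 minus P4HA1 0.23 and PFKP minus PFKM -0.03, and PFKFB4 minus PFKFB3 was -0.27 without overlap of the lines.

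**Figure D4:**
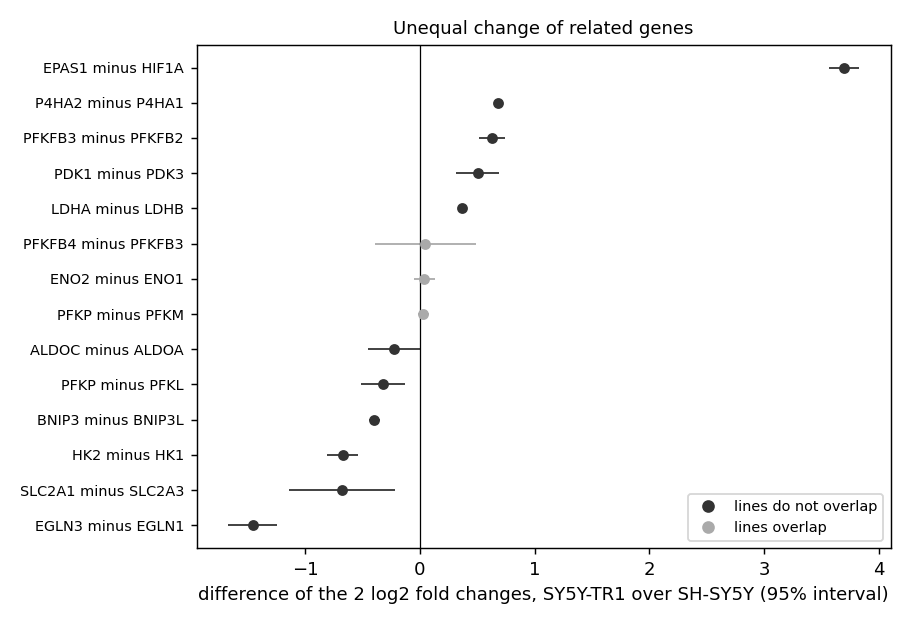
Difference between the log2 fold changes (SY5Y-TR1 over SH-SY5Y) in pairs of related genes, with 95% intervals (n = 3 arrays each). Dark points mark the 11 pairs whose lines do not overlap and grey points the 3 whose lines overlap. The share among unrelated gene pairs was not computed. EPAS1 minus HIF1A lies farthest from 0 at 3.70, while the SLC2A1 and SLC2A3 pair gives no direction.

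Other genes of the same pathways were taken from 7 lists, with 124 genes measured. Of these, 15 rose, 6 fell and 103 were not called, beside 5.36% higher and 5.99% lower over all genes. Their median log2 fold change was 0.12, and 29 of the 124 were at background in both lines. The counts for single lists below are to be read beside the same shares. Among 16 other regulators of the hypoxia-inducible factors, CITED2 rose and ARNT2 fell. CITED2, which competes with the alpha subunits for the coactivators EP300 and CREBBP, had signals of 11.39, 11.45 and 11.35 in SY5Y-TR1 cells and 5.41, 5.38 and 5.32 in SH-SY5Y cells. All SH-SY5Y arrays were at background, and the increase was at least 33.5-fold (limma adjusted p = 2.85e-09). ARNT2, the neural relative of ARNT, fell 2.08-fold, with signals of 7.48 to 7.53 in SY5Y-TR1 cells, against 8.52 to 8.63 in SH-SY5Y cells. VHL, named after its values were seen because it is the ubiquitin ligase subunit that binds hydroxylated alpha subunits, was 1.57-fold lower and not called.

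Among 38 other targets, 8 rose and 4 fell. PLOD2, a lysyl hydroxylase of collagen, had signals of 6.65, 6.89 and 6.71 in SY5Y-TR1 cells and 3.02 to 3.10, at background, in SH-SY5Y cells, which bounds its increase at 1.34-fold or more. HMOX1, the heme oxygenase, rose 3.51-fold, and BHLHE41, the closest relative of BHLHE40, rose 3.35-fold, though its call was lost with the mean of all its probe sets (log2 fold change 0.76) and with only probe sets free of shared-sequence names (0.11, limma adjusted p = 0.258). RORA, a nuclear receptor, fell at least 1.91-fold and CXCR4, a chemokine receptor, at least 1.14-fold, as all their SY5Y-TR1 arrays were at background. With values raised to the background level, the calls of CXCR4 (log2 fold change -0.19, limma adjusted p = 0.13), RORA (-0.93) and PLOD2 (0.42) were lost. HILPDA, a lipid droplet protein named after its values were seen as the last of the 4 decreases, fell 2.17-fold, with means above background in both lines. ZNF395 fell 2.28-fold in its brightest probe set but had a log2 fold change of 0.25 where only probe sets without shared-sequence names were used. VEGFA, named after its values were seen because it is a textbook target, was 1.65-fold lower, with signals of 8.98, 9.05 and 8.83 in SY5Y-TR1 cells and 9.64, 9.70 and 9.68 in SH-SY5Y cells.

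**Figure D5:**
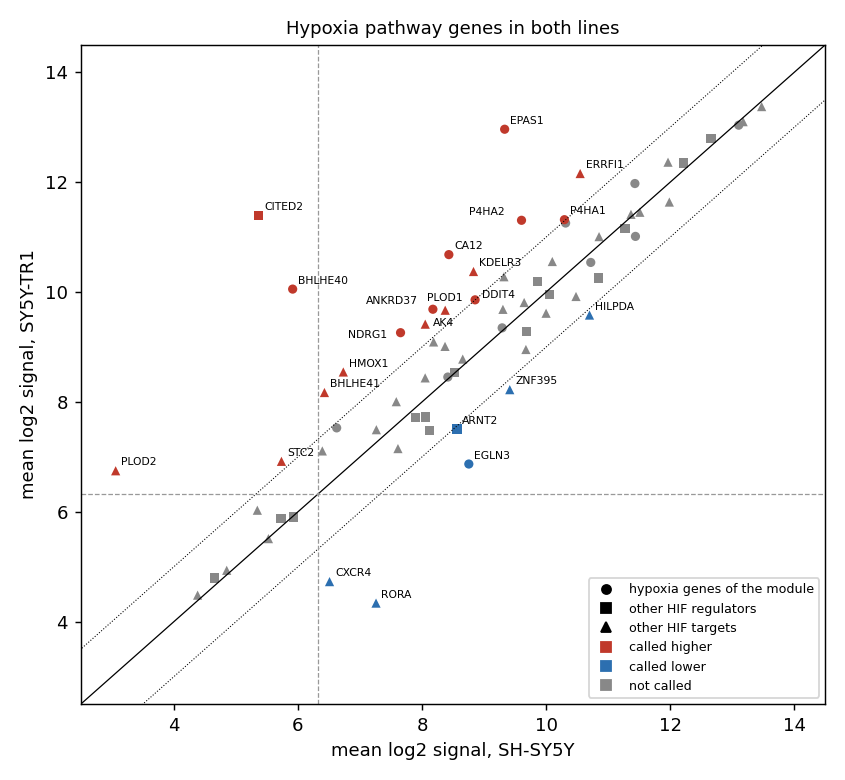
Mean log2 signal in SY5Y-TR1 (vertical) and SH-SY5Y (horizontal) of the 17 measured hypoxia genes, 16 other regulators and 38 other targets (n = 3 arrays each). The solid line marks equal signals, dotted lines 2-fold and dashed lines background, and CITED2, BHLHE40, PLOD2 and STC2 lie left of the dashed vertical line and above the 2-fold line.

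The other lists concern sugar metabolism. Of 15 other transporters and partners, 3 rose and none fell. SLC2A10, the transporter GLUT10, had signals of 9.88, 9.91 and 9.94 in SY5Y-TR1 cells, against 7.58, 7.38 and 7.61 in SH-SY5Y cells, and rose 5.22-fold (limma adjusted p = 2.43e-07). EMB, a chaperone of lactate transporters, rose 2.72-fold and SLC2A11, the transporter GLUT11, 2.25-fold, the last losing its call where all its probe sets were averaged (log2 fold change 0.97). Among 14 glycogen genes, PPP1R3C, which targets protein phosphatase to glycogen, rose 2.89-fold and PYGL, the liver-type glycogen phosphorylase, 2.39-fold, and none fell. The PPP1R3C call was lost where its probe sets were averaged (0.66). Of 19 other glycolytic genes, only TIGAR, which lowers fructose 2,6-bisphosphate, was called, with signals of 11.23, 11.13 and 11.24 in SY5Y-TR1 cells and 9.61, 9.61 and 9.61 in SH-SY5Y cells (3.01-fold higher). Of 11 genes of pyruvate entry, PDK4 alone was called, lower, but both lines were at background. None of 11 genes of the pentose phosphate path and gluconeogenesis was called, and the 2 brightest, TKT (transketolase) and TALDO1 (transaldolase), had log2 fold changes of -0.08 and 0.44.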

How the data were processed

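Total RNA of both lines was measured on Affymetrix U133 Plus 2.0 arrays. The deposited values are log2 signals, which the authors obtained by RMA (background correction, quantile normalization and probe summary) in Affymetrix Expression Console, version not given in the sources used here. These steps could therefore not be varied from raw intensities. Array medians ran from 5.56 to 5.59, and precision is limited by there being only 3 arrays a line.

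Of 54613 probe sets (62 controls left out), 41091 carried 1 symbol in the platform annotation, 1801 several and 11721 none. RefSeq tables (GRCh38.p14) served for names and promoters. Genes were compared with limma 3.58.1 in R 4.3.3 on all 6 arrays without covariates. Tested on simulated data, 19775 genes at a time, the fit recovered at least 98% of genes changed by 1.5 log2 units or more. Of genes changed by 0.5 log2 units, at least 64% passed the adjusted p limit. Each simulation changed a far smaller share of genes than the 52.8% that passed that limit in the data. Changes near 2-fold were not simulated.

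Groups came from the sample labels. The 44 genes and all lists were chosen with earlier results of these data known. Full values are given for every called gene of the set, its 3 brightest genes, HIF1A, EPAS1, ARNT and EGLN1. For each other list, the 3 largest called increases and decreases are given, or its 2 brightest genes where none was called. Alternatives covered probe sets, centring, filters, thresholds, a replicate block, the methods' t-test and each array left out.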

Additional observations from a re-analysis of the deposited data

How the results depend on the processing

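The count of 10 increases was 9 to 10 with each array left out, 6 with all of a gene's probe sets averaged and 4 with only probe sets without shared-sequence names. The last setting tested 25 of the 41 genes and left BHLHE40, DDIT4, EGLN3, NDRG1 and SLC2A3 untested, while SLC2A1 (0.50) and P4HA1 (0.17, limma adjusted p = 0.167) were tested and lost their calls. With EGLN3 untested the decreases were 0, and genes with an adjusted p under 0.05 were 15, against 27 (25 to 26 with each array left out). It reversed ZNF395 (0.25, against -1.19), and the cause was not tested. Averaging probe sets lost SLC2A1 (0.88), ANKRD37 (0.99), P4HA1 (0.60) and P4HA2 (0.83), in each of which the mean takes in probe sets at background. Centring on 21 housekeeping genes lost DDIT4 (0.98) and P4HA1 (0.997). A fold of at least 1.5 called 4333 of all genes, against 2245 (2236 to 2281 with each array left out), and added ANGPTL4, BNIP3L, HK1, PFKFB3 and PFKFB4. The median log2 fold change ran from 0.20, without SH-SY5Y replicate 2, to 0.26 with each array left out.

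Same-numbered arrays did not deviate together (correlations 0.000198, 0.0205 and 0.0299), so the numbers were not taken as pairs. A replicate block gave 2245 calls, 10 increases and 1 decrease in the set. An intensity trend with robust variance, the methods' t-test and an adjusted p under 0.01 gave the same 11 calls in the set. Signals at background limit the folds of BHLHE40 and SLC2A3.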
